A study of Mus musculus with 4 samples.

Results

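Arachidonate-oxidising enzymes turn arachidonic acid, a polyunsaturated fatty acid stored in membrane phospholipids, into lipid mediators. Lipoxygenases (the Alox genes) add molecular oxygen to the free fatty acid and start the routes to hydroxy fatty acids, leukotrienes and lipoxins, whereas cyclooxygenases (Ptgs1 and Ptgs2) make the prostaglandin precursor. Alox15, the leukocyte-type lipoxygenase, can also oxidise fatty acids still bound in membranes and is known from resident macrophages and eosinophils. The set held 9 genes, namely the lipoxygenase genes Alox15, Alox5, Alox12, Alox12b, Alox8 and Aloxe3, the 5-lipoxygenase partner Alox5ap, and Ptgs1 and Ptgs2. It was chosen by the measured KO-against-WT change of Alox15, the second largest rise of all genes tested, and the other genes were taken by enzyme family. Each gene was read from the probe set annotated to its symbol alone. Such a probe set was found for 8 of the 9 genes, out of 18820 genes tested, with 1 probe set per gene, and Ptgs1 was not analysed here.

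The KO samples were mouse embryonic stem cells carrying the KAP1 fl/fl genotype after conditional loss of KAP1, also called Trim28, a co-repressor that zinc finger proteins bring to chromatin. The WT samples were mouse embryonic stem cells of wild-type genotype. There were 2 biological replicates in each group, and all 4 carried the treatment label 4-OH-tamoxifen, the drug used to switch on a conditional deletion; the protocol text gives 24 hours of drug or of ethanol vehicle, then 48 hours without drug. Cells of both groups grew on irradiated mouse embryonic fibroblasts (feeder cells), with no step to remove them in the labels. The driver of the recombinase, the number of cell lines or clones, and whether the WT samples come from the same line are not stated by the labels, and line and genotype cannot be told apart. Total RNA was read on Affymetrix Mouse Gene ST whole-transcript arrays, and values are log2 expression as the authors normalised it, so a difference of 1 is a doubling. With 2 arrays per group, their number limits the precision. Trim28 itself read 8.97 and 8.92 in the KO samples and 11.29 and 11.37 in the WT samples, lower in both KO samples than in either WT sample.

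Loss of Trim28 was accompanied by a higher level of Alox15, Alox5 and Ptgs2 and a lower level of Alox12. The epidermal lipoxygenases of the set and Alox5ap had changes that did not pass the test. Levels were compared by limma, fitted over all 18820 genes, and Benjamini-Hochberg adjusted p-values under 0.05 counted as a change. Alox15 was chosen for its rise and is described without a test. Among the 7 other measured members, 2 rose and 1 fell, against 14.2% and 12.7% of all genes tested (26.9% in either direction), and 4 did not pass. With array medians subtracted, 2 members rose and 4 fell, as Alox5ap, Alox12b and Alox8 then passed beside Alox12. With quantile normalization 2 rose and 2 fell, as Alox5ap passed beside Alox12. Over all genes 2676 rose and 2395 fell, and 2065 and 6392 once array medians were subtracted, which shifts every change by -0.17. With quantile normalization 2641 genes rose and 2542 fell. The median change over those 7 was -0.18, and over all genes -0.05. The KO samples lay above both WT samples in 3 of the 8 measured members and below both in 4, and they overlapped in 1; over all genes 26.6% lay above and 38.6% below, 65.2% in all. In cultures of mixed cells, a change in the share of cells that make a transcript and a change in its amount per cell cannot be told apart.

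**Figure D1:**
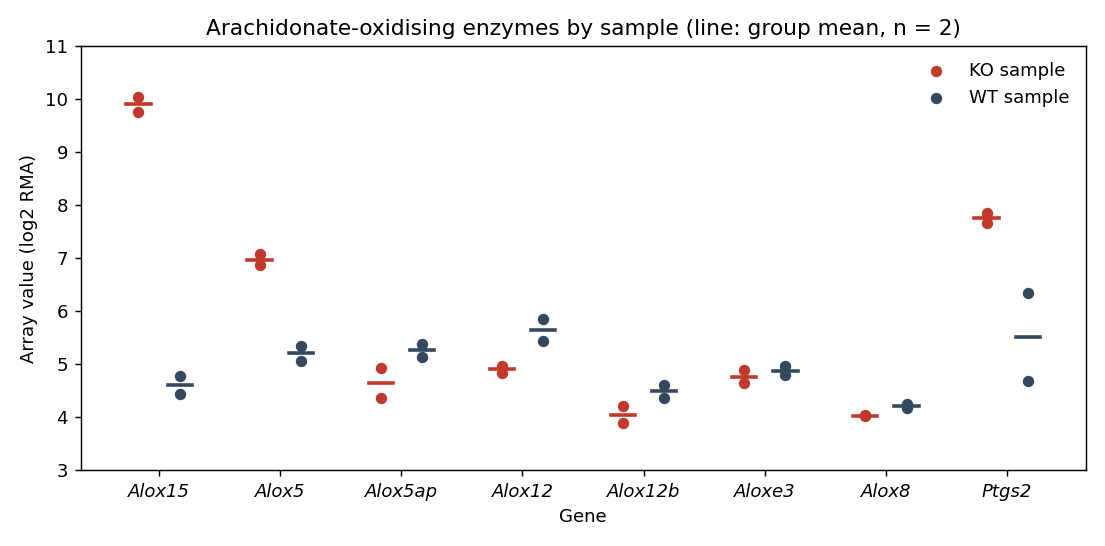
Array values (log2, vertical axis) of the 8 measured enzyme genes (horizontal axis) in the 2 KO samples (red, left of each pair) and the 2 WT samples (dark, right), with a line at each group mean. The KO points of Alox15 stand at 9.76 and 10.04, above WT points at 4.77 and 4.44, and Ptgs2 is the gene whose WT points lie farthest apart.

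Promoter windows were available from RefSeq (GRCm38.p6) for 6 of the 9 members, reaching from 250 bases before to 50 after the annotated start. The windows of Ptgs2, Alox5 and Alox12 are shown because these members passed the test, together with that of Alox12e, the lipoxygenase gene next to Alox15. Short motifs were searched on both strands. They were the E-box (CACGTG), the core of the cAMP response element (TGACG) and the TATA box (TATAAA). The GC box (GGGCGG) was searched as well, with the CCAAT box spelled by its name. The GAS element bound by Stat factors was searched as TTCNNNGAA, and the CArG box of serum response factor by its usual pattern. Capitals mark the E-box and the cAMP core in Ptgs2, which overlap, and the GC boxes in the other 3 windows. The windows lie at chr1:150099781-150100080 (plus strand), chr6:116461129-116461428 (minus), chr11:70255321-70255620 (minus) and chr11:70322481-70322780 (minus).
Ptgs2: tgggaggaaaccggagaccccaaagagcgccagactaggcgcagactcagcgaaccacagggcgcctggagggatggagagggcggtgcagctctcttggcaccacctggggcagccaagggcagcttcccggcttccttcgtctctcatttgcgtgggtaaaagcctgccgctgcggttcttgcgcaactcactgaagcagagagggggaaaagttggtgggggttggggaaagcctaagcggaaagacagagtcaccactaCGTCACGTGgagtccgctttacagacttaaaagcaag
Alox5: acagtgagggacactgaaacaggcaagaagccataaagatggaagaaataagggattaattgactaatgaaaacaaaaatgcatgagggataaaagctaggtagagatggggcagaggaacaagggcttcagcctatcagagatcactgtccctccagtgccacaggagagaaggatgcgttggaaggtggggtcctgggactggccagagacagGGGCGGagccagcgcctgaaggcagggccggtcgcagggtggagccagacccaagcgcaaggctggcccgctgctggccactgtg
Alox12: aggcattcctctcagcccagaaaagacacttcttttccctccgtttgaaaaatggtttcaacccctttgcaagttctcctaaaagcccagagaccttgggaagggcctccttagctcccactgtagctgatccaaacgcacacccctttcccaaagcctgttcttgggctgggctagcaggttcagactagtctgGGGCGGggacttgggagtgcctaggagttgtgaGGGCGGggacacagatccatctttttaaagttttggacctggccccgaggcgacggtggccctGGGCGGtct
Alox12e: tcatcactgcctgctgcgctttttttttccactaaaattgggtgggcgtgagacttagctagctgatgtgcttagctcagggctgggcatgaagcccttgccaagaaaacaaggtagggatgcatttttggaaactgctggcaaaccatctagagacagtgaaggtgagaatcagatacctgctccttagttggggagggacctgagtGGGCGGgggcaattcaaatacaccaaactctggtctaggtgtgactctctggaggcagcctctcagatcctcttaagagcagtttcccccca
The Ptgs2 window held an E-box starting 16 bases after the start, a motif found in 7.15% of all 32851 windows, and a cAMP core, found in 20.8%. GC boxes were present once in Alox5, once in Alox12e and 3 times in Alox12, and also once in Ptgs2, where it is not capitalised. They occur in 35.7% of all windows. None of the 4 windows held a TATA, GAS or CArG match, and the CCAAT box was found only in the Alox12e window among these 4. A match is a description of letters and not of factor binding.

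Alox15 (probe set 10387855, chromosome 11) read 9.76 and 10.04 in the KO samples, against 4.77 and 4.44 in the WT samples. Both KO values lie far above both WT values, and the samples of a group are close to each other. The means were 9.90 ± 0.20 in KO and 4.60 ± 0.24 in WT (SD, n = 2 each), a difference of 5.29 on the log2 scale, or 39.2-fold in array values. Taken pair by pair, a KO sample exceeded a WT sample by 4.98 to 5.60. Leaving out single samples, the difference ranged from 5.13 to 5.46. In the order of rises it stood below the interferon-inducible GTPase gene Gbp2 (5.90) and above the smooth muscle actin gene Acta2 (4.65). The WT mean lies below the median of all genes, and background signal was not used here, so the fold holds for array values only.

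The genes whose pattern lay closest to Alox15 were sought by the distance over the 4 samples, each gene taken as differences from its own WT mean. The nearest 5 of 18812 genes were Gbp2, Tagln, Pramel20, Irgm1 and Cthrc1, at distances of 0.90, 0.97, 1.28, 1.30 and 1.37 log2 units. Tagln, a contractile gene, read 9.04 and 9.51 in the KO samples and 4.83 and 4.50 in the WT samples. Irgm1, an immunity-related GTPase gene on the same chromosome as Alox15, read 8.24 and 8.13 in the KO samples and 3.68 and 3.84 in the WT samples. With 2 samples a group, this likeness says little more than that each of these genes is much higher in both KO samples.

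Alox5, which begins leukotriene synthesis, rose in the KO samples. It read 6.87 and 7.08 in the KO samples and 5.35 and 5.06 in the WT samples, with no overlap. The log2 change was 1.77 (SE 0.13, limma adjusted p = 2.24e-04), or 3.41-fold (95% confidence interval, 2.75 to 4.22). Alox5ap is the membrane protein that presents arachidonate to the Alox5 enzyme. Alox5ap read 4.92 and 4.36 in the KO samples and 5.14 and 5.38 in the WT samples, a change of -0.62 (SE 0.19) that missed the threshold (limma adjusted p = 0.0514). It passed in 5 of 12 alternatives, among them when KO replicate 1 was left out (adjusted p = 0.00333), and the change was negative in all 12. The enzyme gene and its partner gene thus had changes of opposite sign, although the difference between them was not tested.

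Alox12, the platelet-type lipoxygenase, fell in the KO samples. It read 4.97 and 4.83 in the KO samples and 5.44 and 5.85 in the WT samples, so that the groups stood apart. The change was -0.74 (SE 0.15, limma adjusted p = 0.0112), or 1.67-fold lower (95% confidence interval, 1.31 to 2.14). Without WT replicate 2 the change was -0.54 and the call was lost (adjusted p = 0.0596).

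The epidermal lipoxygenases of the set did not pass the test. Alox12b and Aloxe3 act one after the other in building the lipid barrier of the skin. Alox12b read 4.21 and 3.88 in the KO samples and 4.61 and 4.36 in the WT samples (change -0.44, limma adjusted p = 0.0636). Aloxe3 read 4.89 and 4.64 in the KO samples and 4.97 and 4.79 in the WT samples, where the groups overlapped (change -0.11, 95% confidence interval -0.40 to 0.18, limma adjusted p = 0.562). Alox8, the mouse relative of a human epithelial lipoxygenase, read 4.04 and 4.03 in the KO samples and 4.17 and 4.24 in the WT samples (change -0.18, 95% confidence interval -0.39 to 0.04, limma adjusted p = 0.204). These 3 genes are among the 5 of the 8 measured members with a mean below 5.57, the median over the genes tested. Without KO replicate 2 the change of Aloxe3 was 0.01.

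Ptgs2, the inducible cyclooxygenase that answers serum, cytokines and mechanical cues, rose in the KO samples. It read 7.66 and 7.85 in the KO samples and 6.34 and 4.68 in the WT samples. The KO samples were close to each other and above both WT samples, while the WT samples differed by 1.65. The change was 2.24 (SE 0.46, limma adjusted p = 0.0129), or 4.74-fold with a wide 95% confidence interval of 2.20 to 10.2. Its size rests on which WT sample is used, being 3.07 without WT replicate 1 and 1.42 without WT replicate 2 (adjusted p = 0.00485 and 0.0113).

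**Figure D2:**
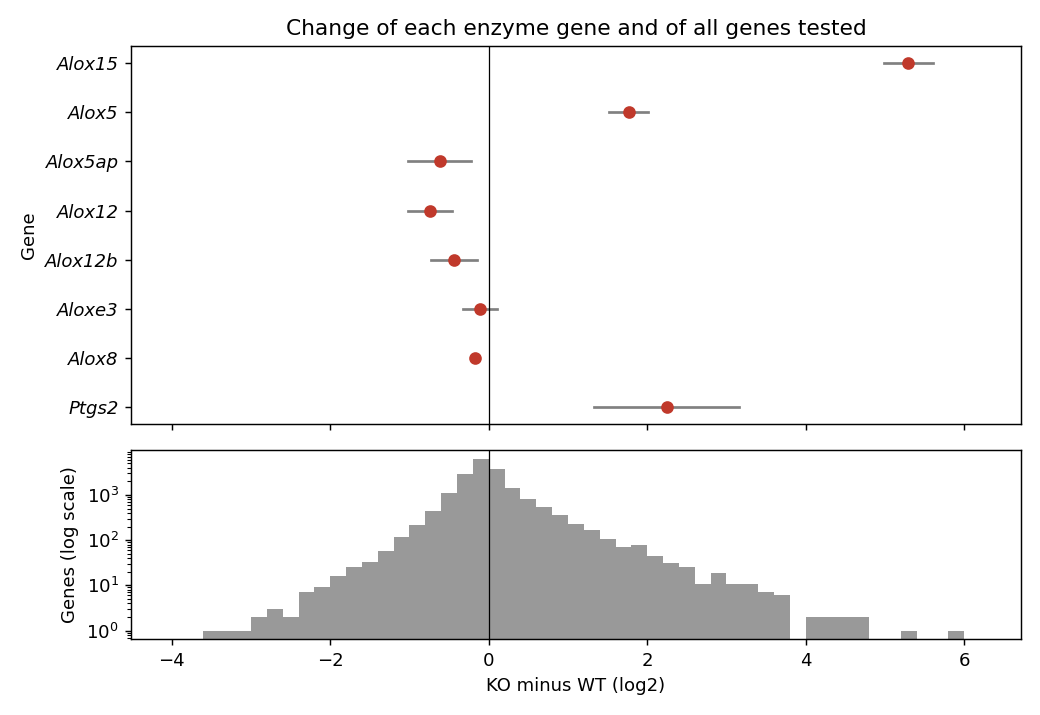
Upper panel, change of each measured enzyme gene as KO minus WT on the log2 scale (horizontal axis), with a point at the mean difference and a line over the range of the 4 pairs of a KO and a WT sample; lower panel, number of genes (log scale) at each change over all 18820 genes. Alox15 lies at 5.29 at the far right of the distribution, Ptgs2 at 2.24 has the widest line, and the line of Aloxe3 crosses 0.

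Of the 8 measured members, 5 lie on chromosome 11, and Alox12, Alox12e and Alox15 follow one another there. Alox12e, a lipoxygenase of mouse epidermis outside the set, rose between its neighbours. It read 4.74 and 4.52 in the KO samples and 3.76 and 3.76 in the WT samples, a change of 0.87 (SE 0.11, limma adjusted p = 0.00155). On the other side of Alox15, Pelp1, a nuclear receptor co-regulator gene, read 9.52 and 9.50 in the KO samples and 9.50 and 9.57 in the WT samples (change -0.03, limma adjusted p = 0.845). Arrb2, the next gene and a beta-arrestin, had a change of 0.01 (limma adjusted p = 0.959). Along this row the 3 lipoxygenase genes thus differed in direction, with a fall in Alox12, a rise in Alox12e and the high level of Alox15, while the next 2 genes did not pass. Whether the Alox12e probe set also reads Alox15 transcripts, which moved with it, was not tested.

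A wider view took the 25 genes on each side of a member, among genes above the median level, of which 18.9% rose and 19.3% fell overall with a median change of -0.05. Around Alox15, 7 of 50 rose and 5 fell (median 0.02). Around Alox5, on chromosome 6, 18 of 50 rose and 2 fell (median 0.24), so that its rise stood among rises. Around Ptgs2, on chromosome 1, 6 of 50 rose and 26 fell (median -0.40), so that its rise stood among falls. Pla2g4a, the cytosolic phospholipase that frees arachidonate, is the tested gene next to Ptgs2. It read 4.10 and 3.97 in the KO samples and 4.50 and 3.98 in the WT samples (change -0.21, limma adjusted p = 0.423). Around Alox5ap, near an end of chromosome 5, 3 of 32 rose and 7 fell (median -0.22). Around Alox12 there were 8 rises and 5 falls of 50 (median 0.02). Alox15, which was chosen for its rise, is among those 8. Around Aloxe3, Alox12b and Alox8, which share their neighbours, there were 9 rises and 9 falls of 50 (median -0.02). Among all tested genes whatever their level, the median around Alox5 was 0.02 and that around Ptgs2 -0.12.

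**Figure D3:**
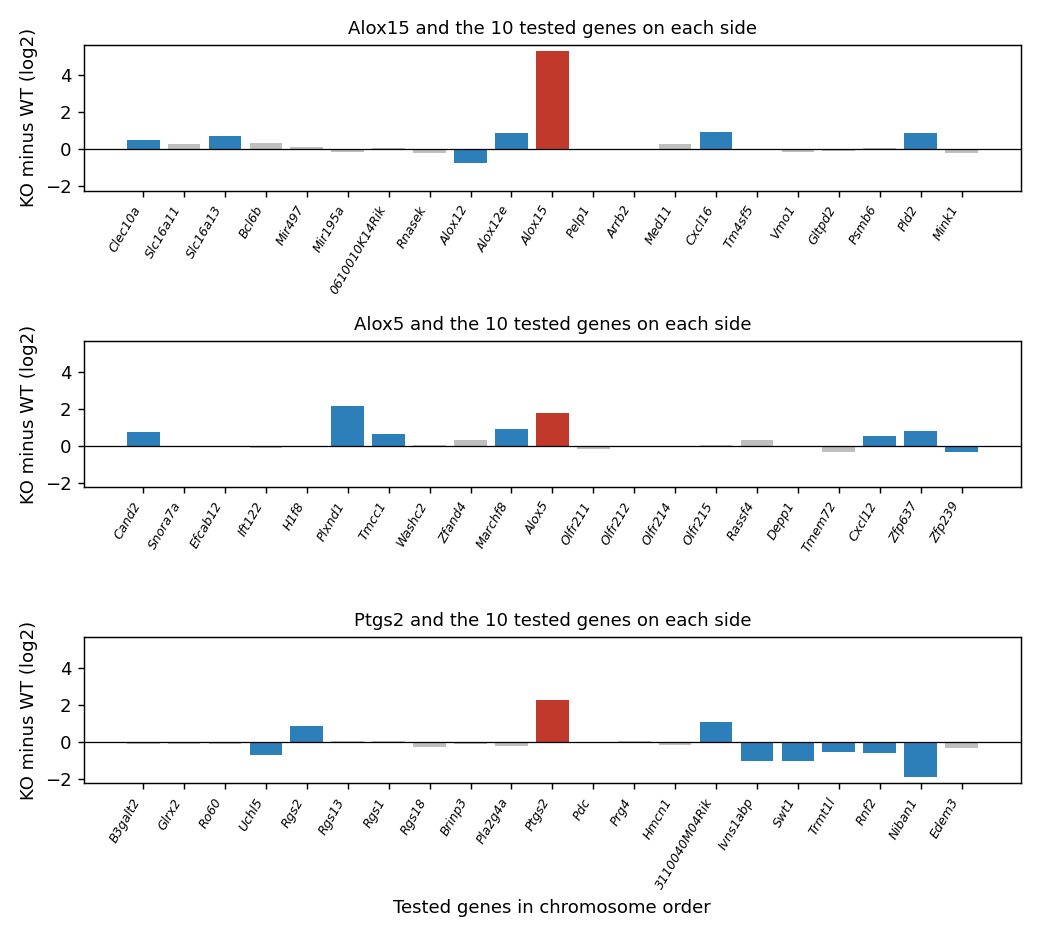
Change as KO minus WT on the log2 scale (vertical axis) for Alox15, Alox5 and Ptgs2 (red bars) and the 10 tested genes on each side of each in chromosome order, in blue where the limma adjusted p is under 0.05 and in grey otherwise. Alox15, at 5.29, stands between Alox12e at 0.87 and Pelp1 at -0.03, with Alox12 at -0.74 and Arrb2 at 0.01 next to these. Ptgs2, at 2.24, stands beside Pla2g4a at -0.21.

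Around the members, 123 genes of arachidonate metabolism in 8 lists were measured, and 29 rose and 15 fell (35.8%, against 26.9% of all genes). With array medians subtracted 25 rose and 43 fell, so that falls outnumbered rises, as they then did over all genes. With quantile normalization 29 of the 123 rose and 18 fell. Their median change was -0.08, against -0.05 over all genes. With 1 WT replicate left out, fewer of these genes were called, and fewer of all genes were too. The lists upstream and downstream of the enzymes are described in turn, and no list was tested as a set. Over all genes 14.2% rose and 12.7% fell, and each list count stands beside these shares.

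Of 26 measured enzymes that release arachidonate from phospholipids, 2 rose and 7 fell (median -0.15), with 3 falls without WT replicate 1 or 2 and 4 without KO replicate 2, and 11 with array medians subtracted. Pla2g1b, a secreted phospholipase first known from the pancreas, read 9.07 and 8.68 in the KO samples and 10.18 and 10.06 in the WT samples (change -1.25, limma adjusted p = 0.00118). Pla2g5, another secreted enzyme, read 6.19 and 5.49 in the KO samples and 7.03 and 7.02 in the WT samples (change -1.18, limma adjusted p = 0.00743), though it missed the threshold without WT replicate 1 or 2 (adjusted p = 0.0798 and 0.0814). In both genes the KO samples lie below the WT samples. Pla2g2e, of the same secreted family, fell by 0.66. Pla2g12b, a family member without the usual catalytic residue, rose by 1.01.

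Genes that work with the lipoxygenases or carry leukotriene synthesis onward went both ways. Of 9 measured, 1 rose, namely Alox12e, and 3 fell (median -0.14), against 14.2% and 12.7% of all genes. Cotl1, an actin-binding protein that binds the Alox5 enzyme, had a change of -0.54, and the call was lost without WT replicate 2 (adjusted p = 0.0659). Dpep2, a dipeptidase that trims cysteinyl leukotrienes, had a change of -0.44. Lta4h, the hydrolase that completes the chemotactic leukotriene, read 8.34 and 8.34 in the KO samples and 8.67 and 8.74 in the WT samples (change -0.36, limma adjusted p = 0.0262). Dpep2 missed the threshold in 4 of 13 alternatives, among them without KO replicate 2 or either WT replicate. Its change ranged from -0.61 to -0.24 over the 13, and from -0.54 to -0.34 with single samples left out. Lta4h missed the threshold whichever single sample was left out, with changes of -0.39 to -0.32.

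Of 9 measured receptors for leukotrienes, lipoxins and hydroxy fatty acids, 1 rose and 1 fell (median -0.09), against 14.2% and 12.7% of all genes. With array medians subtracted 1 rose and 3 fell. A mean below the median over the genes tested was found for 8 of these 9, Cysltr1 among them. A lack of calls in such genes says little about them. Cysltr1, a receptor for cysteinyl leukotrienes, read 5.76 and 6.46 in the KO samples and 3.32 and 3.80 in the WT samples. The groups do not overlap, and the change was 2.56 (SE 0.25, limma adjusted p = 6.56e-04). Cmklr1, a receptor for chemerin that has also been linked to resolvins, fell by 0.88.

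Few synthase and receptor genes of the prostanoid branch downstream of Ptgs2 were called. Of 10 synthases measured, 1 rose and 1 fell (median -0.12), against 14.2% and 12.7% of all genes. With array medians subtracted 1 rose and 3 fell. Ptges, the inducible prostaglandin E synthase that commonly works with Ptgs2, read 6.69 and 6.78 in the KO samples and 7.67 and 7.48 in the WT samples (change -0.83, SE 0.10, limma adjusted p = 0.00179). It was therefore lower where Ptgs2 was higher. Akr1c18, a keto reductase of steroids and prostaglandins, rose by 1.16. Among 8 receptor genes 1 rose and 1 fell (median -0.08), against the same shares of all genes. With array medians subtracted 0 rose and 3 fell. Of these 8 genes, 7 had a mean below the median over the genes tested, so a lack of calls says little about them. Ptgfrn, a partner that dampens a prostaglandin receptor, had a change of -0.45, and Ptger3, a prostaglandin E receptor, one of 0.34. Both lost their call when samples were left out, with an adjusted p of up to 0.138 for Ptgfrn and 0.207 for Ptger3.

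Of 8 measured genes that take up, export or inactivate prostaglandins, 5 rose and 1 fell (median 0.51), or 5 and 2 with array medians subtracted. Slco2a1, the prostaglandin uptake transporter, read 6.80 and 7.65 in the KO samples and 5.24 and 5.45 in the WT samples (change 1.88, SE 0.26, limma adjusted p = 0.00242). Abcc4, an exporter of prostaglandins, had a change of 0.64, the organic anion transporter gene Slco3a1 one of 0.54 and the prostaglandin reductase gene Zadh2 one of 0.52. These 3 smaller changes lost their call without either WT replicate, those of Slco3a1 and Zadh2 also without KO replicate 2, and 1 rise was left in the list without WT replicate 1 and 1 without WT replicate 2. There were 3 rises without KO replicate 2.

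Cytochrome P450 enzymes that oxidise arachidonate, and the hydrolases that open the epoxides, rose in part. Of 25 measured, 6 rose and 0 fell in limma (1 lower at an unadjusted p under 0.05, median -0.06), with 4 rises left without WT replicate 1 or 2; with array medians subtracted 5 rose and 8 fell. Cyp1b1, also an oestrogen hydroxylase, read 5.91 and 6.12 in the KO samples and 4.04 and 3.71 in the WT samples (change 2.14, SE 0.14, limma adjusted p = 1.49e-04). The size of its change depended on the processing, from 1.17 to 2.31 over 12 alternatives. With single samples left out it ranged from 1.97 to 2.31. Cyp2j9 and Cyp2j6, of the epoxygenase subfamily, rose by 1.67 and 0.82, and the epoxide hydrolase gene Ephx3 by 1.47. Of these 25 genes, 21 had a mean below the median over the genes tested.

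Genes that load arachidonate into phospholipids or reduce lipid peroxides rose in part. Of 28 measured, 12 rose and 1 fell (median 0.24), with 8 rises left without WT replicate 2. Mboat1, a lysophospholipid acyltransferase, read 6.86 and 7.15 in the KO samples and 4.96 and 5.23 in the WT samples (change 1.91, limma adjusted p = 2.11e-04). Gpx8 and Gpx3, glutathione peroxidases of the endoplasmic reticulum and of the extracellular space, rose by 1.78 and 1.75. Acsl5, which activates fatty acids, rose by 1.69. Gpx4, the peroxidase that acts on phospholipid hydroperoxides in membranes and so opposes lipoxygenases, read 9.74 in KO and 10.12 in WT on average and did not pass (change -0.38, limma adjusted p = 0.0505). With array medians subtracted this list had 10 rises and 9 falls.

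**Figure D4:**
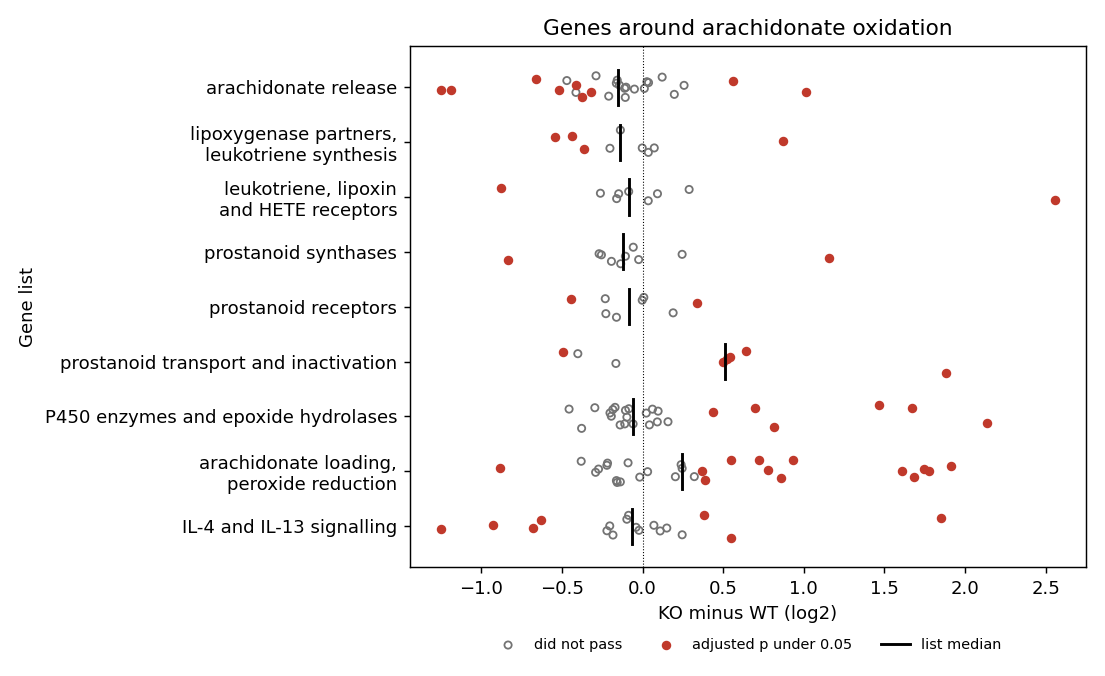
Change as KO minus WT on the log2 scale (horizontal axis) for each measured gene of the 8 lists of arachidonate metabolism and the cytokine list, 1 row per list, filled where the limma adjusted p is under 0.05 and open otherwise, with a bar at the list median. The medians lie between -0.15 for arachidonate release and 0.51 for prostanoid transport and inactivation, and Cysltr1, at 2.56, is the point farthest to the right.

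The cytokines IL-4 and IL-13 are the known inducers of Alox15 in myeloid cells and act through Stat6. Of 18 measured genes of this route, 3 rose and 4 fell (median -0.06), against 14.2% and 12.7% of all genes. With array medians subtracted 2 rose and 7 fell. Stat6 itself read 6.27 and 6.16 in the KO samples and 7.17 and 7.13 in the WT samples (change -0.93, SE 0.09, limma adjusted p = 7.43e-04). It was lower in both KO samples than in either WT sample. Stat6 activity was not measured, and any part of this route in the level of Alox15 was not tested. The kinase genes went both ways, with Jak2 rising by 1.85 and Tyk2 falling by 0.68. Kat2b, an acetyltransferase gene, fell by 1.25. Of the 3 rises in the list, 1 was left without WT replicate 1 and 1 without WT replicate 2.

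Marker genes were read for the cell types the cultures could hold. All marker counts stand beside 14.2% of rises and 12.7% of falls over all genes. Embryonic stem cell markers were high in both groups, with a list mean of 9.92 and 9.67 in the KO samples and 10.41 and 10.41 in the WT samples. Of 13 measured, 1 rose and 9 fell (median -0.49), with 3 falls without WT replicate 1 or 2. Of the 3 with the highest level, Pou5f1 fell by 0.49, a call lost without WT replicate 1 or 2 (adjusted p = 0.0534 and 0.0683), and Dppa5a (-0.34) and Tdgf1 (0.15) did not pass. Markers of fibroblasts, which include the feeder cells, were higher in KO. Of 27 measured, 16 rose and 0 fell in limma (0 lower at an unadjusted p under 0.05, median 0.80), and their list mean was 5.47 and 5.43 in the KO samples and 4.76 and 4.61 in the WT samples. Vim rose by 1.44, Col1a1 by 1.78 and Fbln2 by 1.05, the last not without KO replicate 1 or either WT replicate (adjusted p of 0.0561 to 0.225). Ptgs2, which fibroblasts also make, was higher in WT replicate 1 than in WT replicate 2, and so were 16 of these 27 markers, against 49.1% of all genes. The difference of replicate 1 minus replicate 2 ranged from -0.35 in Loxl1 to 1.09 in Lox, both named after their values were seen, and was 0.72 in Fbln2, 0.49 in Col1a1 and 0.21 in Vim. The part of these cells in the levels of Ptgs2 and the other members was not tested.

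Markers of blood cells were read because Alox15 is known from some of them. Of 20 macrophage markers 0 rose and 4 fell in limma (0 higher at an unadjusted p under 0.05, median -0.11), with 2 falls without WT replicate 1 or 2 and 10 with array medians subtracted, and their list mean was 4.08 and 4.04 in the KO samples and 4.31 and 4.26 in the WT samples. Laptm5, the marker of highest level in this list, fell by 2.22. Cd68 fell by 0.56, a call lost without WT replicate 2, and Mertk had a change of -0.32. Of 8 eosinophil markers 0 passed in limma, and 0 at an unadjusted p under 0.05 (median -0.08), with list means of 3.70 and 3.59 in the KO samples and 3.74 and 3.72 in the WT samples. The eosinophil markers of highest value, Siglecf (-0.09), Cebpe (-0.17) and Prg3 (-0.20), had small changes. Mast cell markers had 2 rises and 7 genes of 9 that did not pass (median -0.07), in Gata2 (1.45) and Hdc (0.96), which other cells also use, and Tpsb2 had a change of -0.09. Hdc lost its call without WT replicate 2 (adjusted p = 0.0551). Neutrophil markers had 0 calls of 10 in limma, and 2 were lower at an unadjusted p under 0.05 (median -0.19), with Mpo at -0.13, Camp at -0.26 and Elane at 0.13. With array medians subtracted, which shifts every change by -0.17, 6 of these 10 passed as falls, and 2 eosinophil and 2 mast cell markers did so too. Most blood cell markers were dim. A mean below the median over the genes tested was found for 18 of 20 macrophage and 8 of 8 eosinophil markers. It was also found for 8 of 9 mast cell and 10 of 10 neutrophil markers. A lack of calls in such genes says little about these cells.

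The cell types known for the other lipoxygenases gave few calls. Platelet and megakaryocyte markers, which go with Alox12, had 0 rises and 1 fall of 8 in limma (median -0.14), and 0 higher and 2 lower at an unadjusted p under 0.05. The fall was that of Vwf (-0.51), lost without KO replicate 2 or either WT replicate (adjusted p of 0.0641 to 0.0938), while Treml1 (-0.09) and Itga2b (-0.22) did not pass. With array medians subtracted, 5 platelet markers and 5 epidermis markers passed as falls. Epidermis markers, which go with Alox12b and Aloxe3, had 1 rise and 1 fall of 13 (median -0.02), and Tgm1 (-0.48), Krt14 (0.23) and Tgm3 (-0.11) did not pass. All 8 platelet markers and 12 of the 13 epidermis markers had a mean below the median over the genes tested. Primitive endoderm markers had 7 rises and 0 falls of 14 in limma (0 lower at an unadjusted p under 0.05, median 0.47), with 5 rises left without WT replicate 1 and 4 without WT replicate 2. Lrp2 rose by 1.99 and Dab2 by 1.39, and Lama1 had a change of 0.30 that did not pass.

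**Figure D5:**
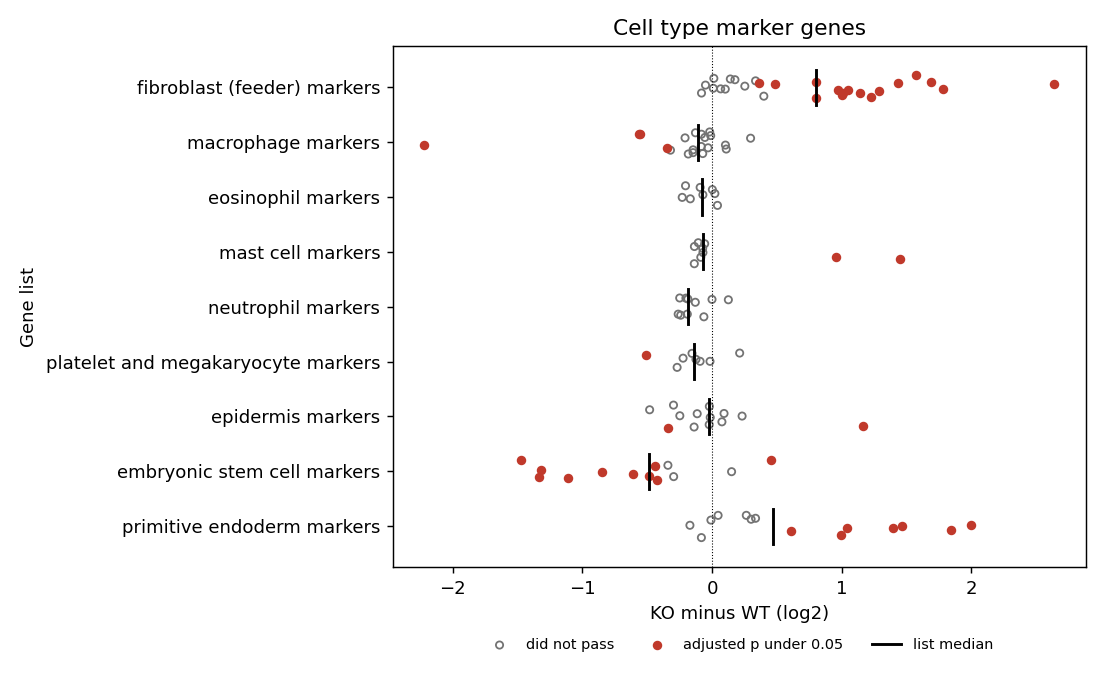
Change as KO minus WT on the log2 scale (horizontal axis) for each measured marker gene of 9 cell types, 1 row per list, filled where the limma adjusted p is under 0.05 and open otherwise, with a bar at the list median. Fibroblast and primitive endoderm markers centre at 0.80 and 0.47, stem cell markers at -0.49, and macrophage and eosinophil markers at -0.11 and -0.08.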

How the data were processed

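The authors deposited log2 expression values for 35556 probe sets and the submitters' processing notes name affy and RMA; versions and settings are not given in the sources used here. RMA corrects background, aligns arrays and summarises probes, which compresses differences among dim probe sets. Values were used as deposited. Groups came from the sample titles. Of 21218 probe sets with 1 symbol, the one of highest mean per gene was kept (18820 genes), with no filter on dim genes. Chromosome order came from RefSeq GRCm38.p6, found for 18790 genes. The probe annotation's own build is not given, so no probe set coordinates are printed; those of promoter windows are RefSeq's, in GRCm38.p6.

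KO was compared with WT by limma (version 3.58.1, under R 4.3.3; lmFit with eBayes, 2 residual and 4.70 prior degrees of freedom), two-sided, with Benjamini-Hochberg adjustment over all genes and a threshold of 0.05. The fit was also run on simulated data with known changes, as a check of the code alone. Far fewer genes changed there than were called here, so it does not measure recovery in these data. The p-values measure the spread between samples labelled as biological replicates, whose separate origin is not described. Members and lists were chosen with earlier results of these data known. Named are all measured members, up to 4 called genes of largest change per pathway list, the 3 highest genes per marker list, the 5 genes nearest to Alox15 and its neighbours; Pla2g4a, Gpx4, Acta2, Lox and Loxl1 were added after their values were seen. Alternatives covered scaling, priors, filters, probe set choice, the replicate block and each sample left out.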

Additional observations from a re-analysis of the deposited data

How the results depend on the processing

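With array medians subtracted every change moved by -0.17. The median change over all genes was -0.05 before, so this shift moved it further down. Then 8457 genes were called instead of 5071, and 6 of the 7 tested members (2 up, 4 down) instead of 3. Of the pathway and cytokine genes 77 were called (27 up, 50 down) instead of 51 (32 up, 19 down). With quantile normalization 5183 genes, 4 members (2 up, 2 down) and 53 pathway and cytokine genes (31 up, 22 down) were called. With 1 sample left out at a time, these counts ranged from 2430 to 4350 genes, 2 to 5 members and 27 to 50 pathway genes. At an adjusted p under 0.1, 5 members passed. At 0.05, 26.9% of all genes already did, so this count says little about the members in particular. The difference of Alox15 stayed between 5.12 and 5.46 in its 13 alternatives, and the calls of Alox5, Ptgs2 and Trim28 held in all 13 of theirs. Those of Alox12 held in 11 of 12. Alox12b passed with array medians subtracted, with the replicate block (adjusted p = 0.0200) and without KO replicate 1, Alox8 with array medians subtracted, and Alox5ap in 5 of 12 alternatives. The replicate numbers gave a block with 5093 genes, 4 members and 50 pathway genes called; deviations of same-numbered samples correlated at 0.145 over genes, but nothing in the labels pairs them.

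With 10 genes on each side, the median change of neighbours was 0.090 for Alox15, 0.12 for Alox12, -0.16 for Alox12b, Alox8, Aloxe3 and Alox5ap, and -0.55 for Ptgs2. Over genes of any level it was -0.0026 for Alox15, where the sign turned, 0.024 for Alox5, -0.12 for Alox12b, Alox8 and Ptgs2, -0.13 for Aloxe3 and -0.092 for Alox5ap. Among single genes, signs turned in 7 that did not pass. With single samples left out the change ranged from -0.23 to 0.014 for Aloxe3, -0.22 to 0.037 for Siglecf, -0.34 to 0.0086 for Cebpe, -0.22 to 0.035 for Treml1 and -0.33 to 0.10 for Tgm3, and with array medians subtracted it was -0.043 for Elane and -0.018 for Tdgf1. The cause was not tested. A sample left alone in its group is assumed to vary like the others. Background intensities were not used here, so how far dim values understate a change is unknown.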
